A study of Mus musculus with 18 samples.

Results

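The genes described here are 46 genes of DNA replication and mitosis, chosen by a list of symbols, out of 14686 genes listed in at least 1 of 3 expression tables of mouse embryonic limb buds. They comprise 19 replication genes, 23 mitosis genes and 4 cyclins of the step into S phase. The replication genes are Mcm2 to Mcm7, Cdc6, Cdt1, Mcm10, Cdc45, Gins1, Gins2, Pcna, Pola1, Pold1, Pole, Rrm1, Rrm2 and Tyms. The mitosis genes are Cdk1, Ccna2, Ccnb1, Ccnb2, Aurka, Aurkb, Plk1, Birc5, Tpx2, Bub1, Bub1b, Ttk, Cdc20, Cenpe, Cenpf, Kif11, Kif20a, Nusap1, Prc1, Ect2, Anln, Top2a and Mki67, and the cyclins are Ccne1, Ccne2, Ccnd1 and Ccnd2. The study profiled RNA of limb buds, the outgrowths of mesenchyme under an ectodermal cover that become the limbs, to compare hindlimb with forelimb and to find the expression that depends on Pitx1, a homeodomain factor of the hindlimb. Its 6 groups had 3 libraries each (n = 3). Wild type CD1 hindlimbs at e11.0 were set against wild type CD1 forelimbs at e10.5, stages matched by morphology. Pitx1 null hindlimbs of the BALB/c strain were set against wild type BALB/c hindlimbs, once at e11.0 and once at e11.5. The null allele, and whether a library held pooled embryos, are not given in the sources used here.

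A cell copies its genome once per division. In G1, Cdc6 and Cdt1 load the ring of Mcm2 to Mcm7 onto DNA. Cyclins and their kinases then turn the ring into a helicase together with Cdc45 and the GINS complex, and polymerases held by the Pcna clamp extend the new strands from nucleotides made by ribonucleotide reductase (Rrm1, Rrm2) and thymidylate synthase (Tyms). Replication genes are transcribed mainly in late G1 and S phase, and mitosis genes in G2 and M phase, so both sets are high in tissues that divide fast, such as the early limb bud. In the promoters, factors of the E2F family act on many replication genes, and the MuvB complex acts through the CHR element, often beside CCAAT boxes bound by NF-Y, on many mitosis genes.

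The promoters of 7 members are shown because each was, in its role class, the member of smallest p among those higher in null hindlimbs at e11.5. Each window runs from 250 bases before to 50 bases after the gene's start in RefSeq (GRCm38.p6) and is read on the gene's strand. It lies at chr12:24708004-24708303 (plus strand) for Rrm2, chr11:98907901-98908200 (plus) for Cdc6, chr10:69352863-69353162 (minus) for Cdk1, chr2:172370521-172370820 (minus) for Aurka, chr2:132253131-132253430 (minus) for Pcna, chr4:118437294-118437593 (minus) for Cdc20 and chr8:75109259-75109558 (plus) for Mcm5. Capitals mark matches on either strand to the CHR element TTTGAA, the CCAAT box CCAAT, and the E2F sites TTTCCCGC and TTTGGCGC.
Rrm2: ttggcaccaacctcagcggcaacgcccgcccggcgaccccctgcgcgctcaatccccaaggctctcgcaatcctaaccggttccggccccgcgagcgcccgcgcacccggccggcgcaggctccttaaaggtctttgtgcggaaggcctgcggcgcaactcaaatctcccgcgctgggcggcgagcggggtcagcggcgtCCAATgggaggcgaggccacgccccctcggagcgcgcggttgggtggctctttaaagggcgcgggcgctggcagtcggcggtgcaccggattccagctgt
Cdc6: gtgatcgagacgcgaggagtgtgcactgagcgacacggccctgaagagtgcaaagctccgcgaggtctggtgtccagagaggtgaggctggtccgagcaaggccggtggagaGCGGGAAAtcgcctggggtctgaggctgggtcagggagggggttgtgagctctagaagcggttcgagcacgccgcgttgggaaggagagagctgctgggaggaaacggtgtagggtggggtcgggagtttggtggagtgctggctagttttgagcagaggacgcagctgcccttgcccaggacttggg
Cdk1: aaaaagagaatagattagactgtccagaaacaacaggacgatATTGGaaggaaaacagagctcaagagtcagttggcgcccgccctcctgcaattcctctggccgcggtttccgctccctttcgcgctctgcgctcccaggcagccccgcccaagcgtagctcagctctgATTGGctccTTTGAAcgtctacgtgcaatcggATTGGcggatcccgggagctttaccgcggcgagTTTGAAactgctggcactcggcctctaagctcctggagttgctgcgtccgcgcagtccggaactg
Aurka: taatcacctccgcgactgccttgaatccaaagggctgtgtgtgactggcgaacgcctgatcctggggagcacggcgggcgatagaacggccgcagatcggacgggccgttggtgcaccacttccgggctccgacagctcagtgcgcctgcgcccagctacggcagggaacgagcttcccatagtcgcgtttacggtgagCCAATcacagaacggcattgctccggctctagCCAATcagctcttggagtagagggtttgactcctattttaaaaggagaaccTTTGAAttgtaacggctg
Pcna: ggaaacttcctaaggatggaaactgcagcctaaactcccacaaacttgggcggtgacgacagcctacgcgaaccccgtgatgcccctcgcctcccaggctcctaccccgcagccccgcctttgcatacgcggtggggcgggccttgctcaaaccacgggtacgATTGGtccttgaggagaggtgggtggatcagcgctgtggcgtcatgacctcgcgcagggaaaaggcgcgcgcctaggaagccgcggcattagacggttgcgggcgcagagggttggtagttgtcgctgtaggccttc
Cdc20: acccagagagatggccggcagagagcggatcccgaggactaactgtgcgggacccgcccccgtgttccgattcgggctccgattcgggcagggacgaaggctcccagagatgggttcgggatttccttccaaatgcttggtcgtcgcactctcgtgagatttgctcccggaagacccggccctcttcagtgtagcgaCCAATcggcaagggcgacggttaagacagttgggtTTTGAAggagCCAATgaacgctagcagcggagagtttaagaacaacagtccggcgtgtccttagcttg
Mcm5: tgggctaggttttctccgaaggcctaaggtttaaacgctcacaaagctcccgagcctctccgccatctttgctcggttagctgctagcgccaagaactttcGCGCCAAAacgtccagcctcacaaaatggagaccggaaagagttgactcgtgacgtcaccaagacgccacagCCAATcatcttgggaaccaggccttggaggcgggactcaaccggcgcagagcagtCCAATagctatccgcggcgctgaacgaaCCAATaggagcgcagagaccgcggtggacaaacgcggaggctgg
RefSeq promoters were matched for 35 of the 46 members. They were not matched for Mcm4, Gins1, Gins2, Pole, Ccne2, Ccnd1, Ccnd2, Ccna2, Aurkb, Kif20a and Tpx2. The CHR letters were found in 14 of 19 mitosis promoters (73.7%) and in 2 of 15 replication promoters (13.3%), against 20.2% of the promoters of 27025 genes. The E2F letters were found in 8 of 15 replication promoters (53.3%) and in 0 of 19 mitosis promoters, against 1.8% of all genes. CCAAT was present in 84.2% of the mitosis promoters, 73.3% of the replication promoters and 41.1% of all genes, and CHR with CCAAT in 68.4%, 13.3% and 8.97%. Matches to different motifs never overlapped in the members' windows. Among the printed windows, Rrm2 and Pcna each held CCAAT 1 time, Cdk1 held CHR 2 times and CCAAT 3 times, Aurka and Cdc20 each held CHR 1 time with CCAAT 2 times, Mcm5 held 1 E2F match with CCAAT 3 times, and Cdc6 held 1 E2F match alone. The Cdc6 window lies wholly inside the span of the gene in GENCODE M21, which starts at base 98907801 of chromosome 11. Bases upstream of that start were therefore not searched for Cdc6. A match describes letters in a window and is not a shown binding site.

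Levels were deposited as CPM, read counts scaled to a common library total, with 17.4 to 53.6 M reads implied per library, and each of the 3 tables was normalized alone. All 46 members were listed in all 3 tables and none fell under 5 CPM, the lowest value being 22.4 CPM and the highest 1926 CPM. Pitx1 itself was at 19.3 to 22.9 CPM in null and 114 to 136 CPM in wild type hindlimbs at e11.0, at 72.1 to 88.6 CPM in null and 319 to 364 CPM in wild type hindlimbs at e11.5, and at 183 to 223 CPM in CD1 hindlimbs against 0.266 to 0.462 CPM in CD1 forelimbs. Replicates 1 and 2 of every group shared 1 sequencing run, and replicate 3 of the BALB/c groups came from another run, unstranded at e11.5. The labels name no run for replicate 3 of CD1, which was fitted as another run. Replicate 3 stood apart for the members too. Its log2 level minus that of replicates 1 and 2 had a member median of -0.04 in CD1, -0.21 at e11.0 and -0.07 at e11.5, with single members between -0.998 and 0.79. The fits therefore had a term for the run. Separate litters or dissections behind the replicates are not recorded in the labels, so p-values measure the spread between these libraries, which may be technical. All 7 limb mesenchyme markers, Prrx1, Prrx2, Twist1, Msx1, Lhx2, Tbx18 and Meox2, were listed in each table, with summed levels of 650 to 1798 CPM. Whether counting used strand is not given in the sources used here. Of the called members, Ccne2, Ccnd2, Pole, Plk1, Cdc20 and Kif20a overlap an annotated gene on the other strand (Cdc23 for Kif20a, Elovl1 for Cdc20, Ints8 for Ccne2), and Pcna and Ccnb1 have annotated pseudogenes, so their reads could be shared. In bulk tissue, fewer cells of a type and less RNA per cell cannot be told apart.

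Genes were ranked by CPM per kilobase of annotated exon. The length counted every annotated exon of a gene, 9013 bases for Top2a, 2400 for Pcna and 2771 for Rrm2. Their longest transcripts have 5221, 1518 and 2193 bases, so ranks can differ with the length used. Top2a, the topoisomerase that untangles sister chromatids, stood at 174 CPM per kilobase in CD1 hindlimb and 176 in CD1 forelimb libraries. Rrm2 had 148 CPM per kilobase in hindlimb and 139.6 in forelimb libraries, and Pcna 138 CPM per kilobase in hindlimb and 135 in forelimb libraries. In the BALB/c hindlimbs at e11.0 the order at the top was different. Pcna had 259 CPM per kilobase in null and 205 in wild type libraries, and Top2a 179 CPM per kilobase in null and 187 in wild type libraries. At e11.5, Rrm2 led on this length with 175 CPM per kilobase in null and 143 in wild type libraries. Low in the ranking were Gins2, with 12.3 CPM per kilobase in null and 11.1 in wild type libraries, and Ccne2, with 10.9 CPM per kilobase in null and 9.90 in wild type libraries, both at e11.5. Ranks within a group are within its own table and say nothing of a change with age.

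**Figure D1:**
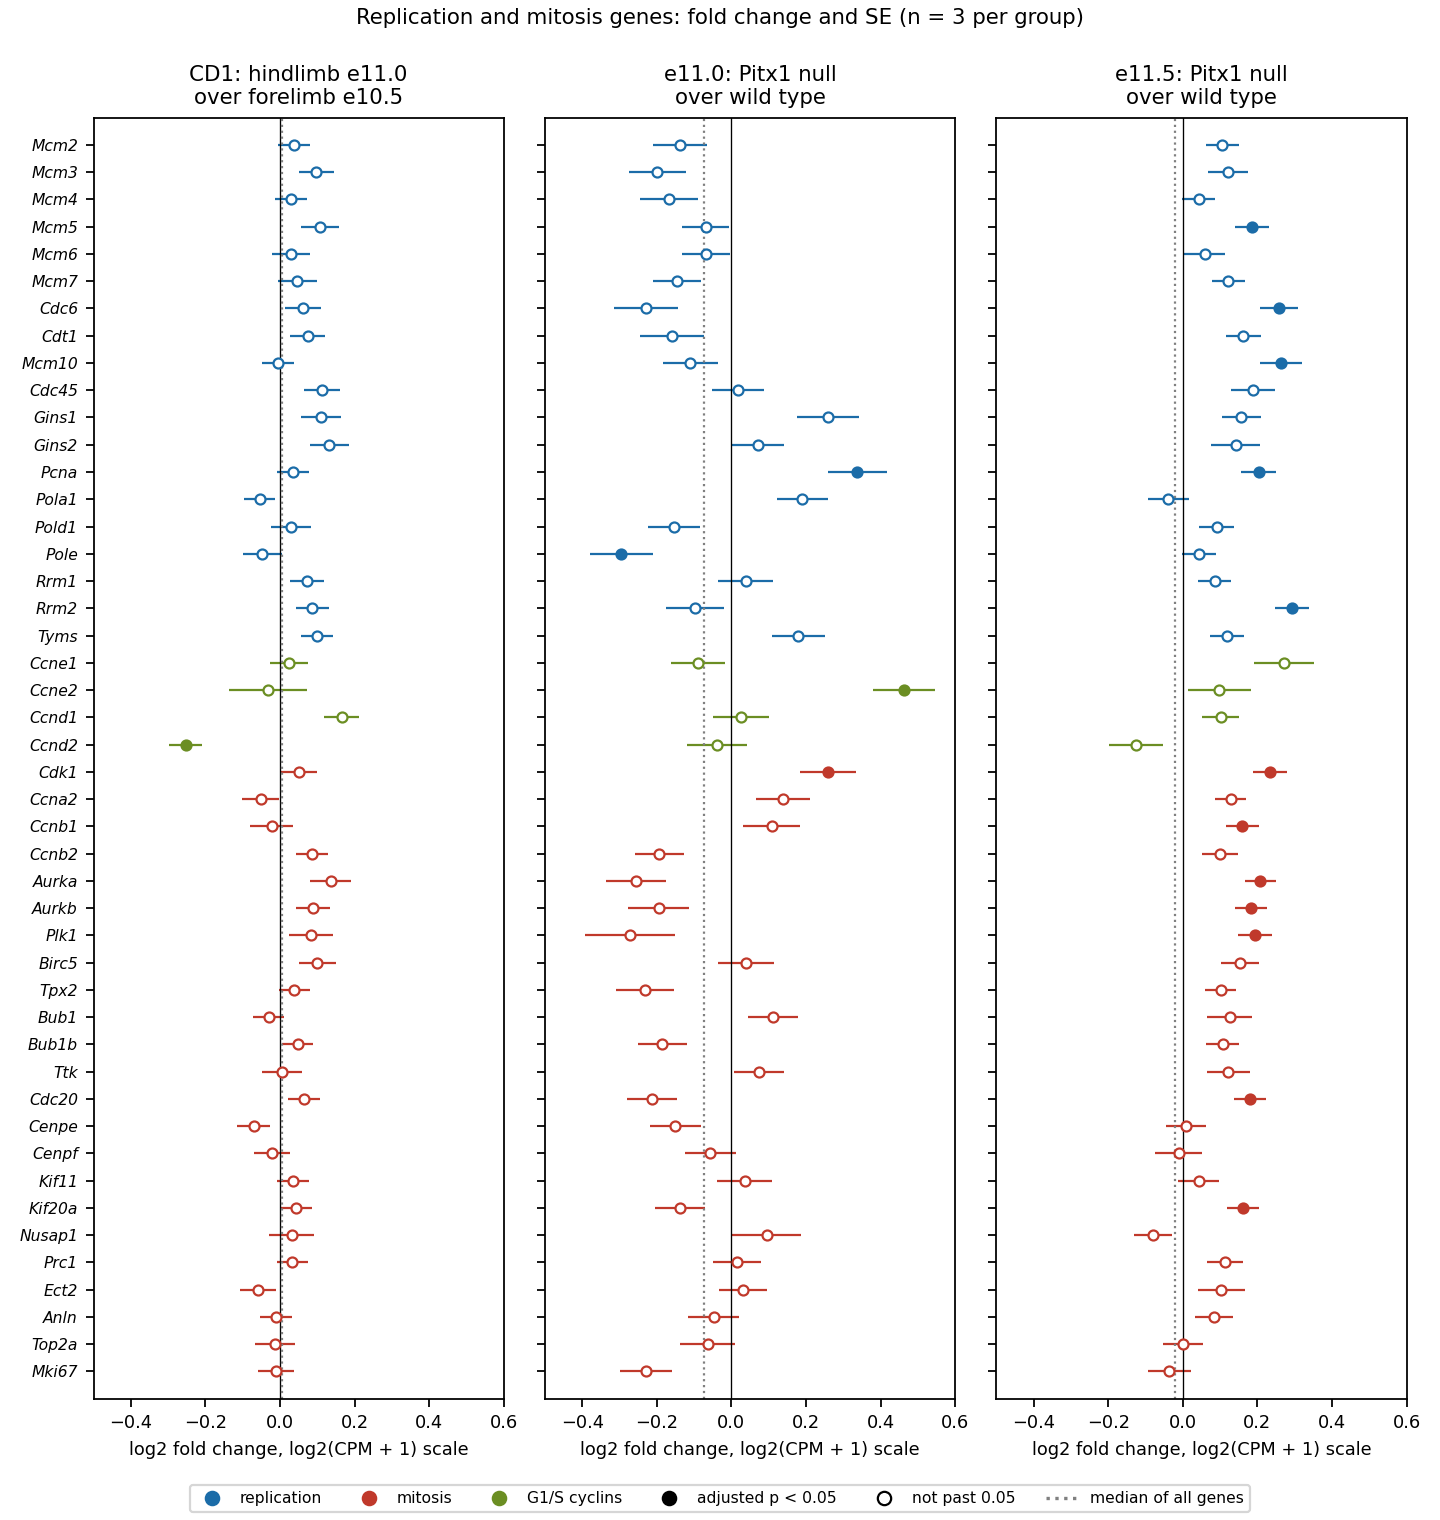
Log2 fold change of the 46 members with its SE in each comparison, on the log2(CPM + 1) scale, coloured by role. Filled points passed an adjusted p of 0.05 (limma), open points did not, and the dotted line is the median of all genes listed. The points lie on both sides of 0 at e11.0 and mostly right of 0 at e11.5, where 12 are filled.

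In CD1 hindlimbs at e11.0 against CD1 forelimbs at e10.5, the replication and mitosis genes were close to equal. The D-type cyclin Ccnd2, which with Cdk4 and Cdk6 drives cells through G1, was lower in hindlimbs, and no other member passed the test in either direction. The 46 members had a median log2 fold change of 0.04, against 0.01 over all genes. The count of 1 lower and 0 higher stands against 3.46% lower and 2.41% higher (5.87% in all) among all 13540 genes tested (limma, adjusted p under 0.05). The forelimbs were also younger, so limb type cannot be told apart from age here.

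Ccnd2 (ENSMUSG00000000184, chr6:127125162-127152193, minus strand) had 439.8, 440.1 and 324 CPM in hindlimb libraries and 516, 512 and 403 CPM in forelimb libraries. Gene coordinates here are those of GENCODE M21 on GRCm38 and span the whole gene. Within the shared run both hindlimb libraries were below both forelimb libraries, and the replicate 3 pair had the same direction at a lower level, so that the groups overlapped. Its log2 fold change was -0.25 ± 0.04 (SE, limma adjusted p = 0.00855), with -0.22 within the shared run and -0.31 in replicate 3. Leaving out forelimb replicate 3 gave an adjusted p of 0.0702 (limma), and leaving out hindlimb replicate 1, 2 or 3 gave 0.0505, 0.0622 or 0.0709, while the log2 fold change stayed between -0.27 and -0.22 with any 1 library left out. The authors' deposited table had Ccnd2 as its 1 called member too, where it had 4.75% of all genes higher and 7.73% lower. Its paralogue Ccnd1 (ENSMUSG00000070348, chr7:144929931-144939925, minus strand) had the other direction without passing the test, at 307, 308 and 291 CPM in hindlimb libraries and 281, 261 and 264 CPM in forelimb libraries. The Ccnd1 groups did not overlap, and the log2 fold change was 0.16 ± 0.05 (adjusted p = 0.0696, limma). Without forelimb replicate 1 Ccnd1 passed the threshold too, and without the run term neither cyclin did. Ccne1 and Ccne2, the E-type cyclins that start S phase with Cdk2, had log2 fold changes of 0.02 and -0.03.

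Of the 19 replication genes, 16 had log2 fold changes above 0, and the values ran between -0.05 and 0.13. Over all genes 7014 of 13540 values were above 0. The helicase subunits Mcm3 and Mcm5 had the smallest p in their class. Mcm3 had 417, 411 and 347 CPM in hindlimb libraries and 368, 394 and 335 CPM in forelimb libraries. Mcm5 had 515, 482 and 443 CPM in hindlimb libraries and 441, 469 and 425 CPM in forelimb libraries. Mcm6, the subunit of highest CPM here, had 534, 503 and 423 CPM in hindlimb libraries and 481, 515 and 430.4 CPM in forelimb libraries. In each the hindlimb and forelimb libraries overlapped, with limma adjusted p between 0.246 and 0.770. Among the genes that load and complete the helicase, Cdc45 had 92.7, 88.4 and 91.2 CPM in hindlimb libraries and 85.5, 79.9 and 86.6 CPM in forelimb libraries. All 3 hindlimb libraries were above all 3 forelimb libraries in Cdc45, which was 1 of 2 members with non-overlapping groups, beside Ccnd1. Among all genes 5.87% had such a separation upward and 5.32% downward, where 0 members did. Gins2 had 39.3, 41.8 and 53.0 CPM in hindlimb libraries and 35.9, 36.4 and 50.2 CPM in forelimb libraries, and Mcm10 147, 150.0 and 134 CPM in hindlimb libraries and 144, 148 and 140.1 CPM in forelimb libraries. The replicate 3 libraries of Gins2 were the highest of each group.

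For the clamp Pcna the levels were 306, 305 and 380.0 CPM in hindlimb libraries and 298, 293 and 378 CPM in forelimb libraries. The polymerases Pola1, which with primase begins new strands, and Pole, of the leading strand, had log2 fold changes of -0.05 ± 0.04 and -0.05 ± 0.05. Pola1 had 161, 159.7 and 191 CPM in hindlimb libraries and 169.8, 167 and 196 CPM in forelimb libraries, and Pole 194, 179 and 132 CPM in hindlimb libraries and 182, 195 and 143 CPM in forelimb libraries. Rrm1, the large subunit of ribonucleotide reductase, had 684, 667 and 591 CPM in hindlimb libraries and 624, 639 and 582 CPM in forelimb libraries, Rrm2, its small subunit, 424, 421 and 388 CPM in hindlimb libraries and 397, 386 and 378 CPM in forelimb libraries, and Tyms 144, 142 and 149 CPM in hindlimb libraries and 132, 130.1 and 144 CPM in forelimb libraries. Each hindlimb library of Rrm2 and Tyms was above the forelimb library of the same number, but the groups overlapped, and adjusted p was 0.284 and 0.208 (limma).

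The 23 mitosis genes held 14 values above 0 and 9 below, from -0.07 to 0.14, where 7014 of 13540 genes over all were above 0. Aurka, the kinase of the spindle poles, had the highest of these, 0.14 ± 0.05 (limma adjusted p = 0.178), with 151, 151 and 122 CPM in hindlimb libraries and 139, 126.1 and 119 CPM in forelimb libraries. The passenger protein Birc5 had 89.2, 93.4 and 120.4 CPM in hindlimb libraries and 90.0, 83.3 and 109 CPM in forelimb libraries. Tpx2, which binds and activates Aurka, had 342, 347 and 333 CPM in hindlimb libraries and 336, 336 and 323 CPM in forelimb libraries. The groups overlapped in all of these. Ccna2, the cyclin of S and G2 phase, had 317, 324 and 330.2 CPM in hindlimb libraries and 349.6, 318 and 340.2 CPM in forelimb libraries, and Ccnb2, a mitotic cyclin, 111, 113 and 125.6 CPM in hindlimb libraries and 108, 104 and 118 CPM in forelimb libraries. Cdc20, which activates the anaphase-promoting complex, had 234, 223 and 193 CPM in hindlimb libraries and 223, 219 and 181 CPM in forelimb libraries. In the kinetochore genes Cenpe and Cenpf the hindlimb values were 279, 296 and 337 CPM and 365, 388 and 409 CPM, against 306, 304 and 347 CPM and 385, 399 and 394 CPM in forelimbs. The spindle motors Kif11 and Kif20a and the cytokinesis gene Ect2 were likewise within the spread of the groups. Kif11 had 371, 379.9 and 371 CPM in hindlimb libraries and 364, 375 and 356 CPM in forelimb libraries, Kif20a 331, 321 and 289 CPM in hindlimb libraries and 309.6, 318 and 285 CPM in forelimb libraries and Ect2 139, 146 and 159 CPM in hindlimb libraries and 156, 144 and 163 CPM in forelimb libraries. Top2a had 1568, 1561 and 1569.8 CPM in hindlimb libraries and 1578, 1633 and 1537 CPM in forelimb libraries, and Mki67, which coats mitotic chromosomes and is a common marker of proliferating cells, 743, 781 and 851 CPM in hindlimb libraries and 753, 786 and 852 CPM in forelimb libraries. Their log2 fold changes were both -0.01.

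Among pathway genes outside the 46, few passed the test in CD1. Of 45 further replication genes 0 passed the test, of 65 further mitosis genes listed 1 was higher, and of 31 further cell cycle regulators listed 1 was lower. Among all genes tested, 2.41% were called higher and 3.46% lower. The higher gene was Cenpm, a centromere protein, at 21.6 ± 0.446 CPM in hindlimbs and 17.9 ± 0.934 CPM in forelimbs (SD, log2 fold change 0.26, limma adjusted p = 0.0489). The lower one was Mycn, a transcription factor of growth in limb mesenchyme, at 117 ± 12.4 CPM in hindlimbs and 143 ± 15.8 CPM in forelimbs (SD, log2 fold change -0.28, adjusted p = 0.0149, limma). Of markers of other cell types, 4 of 12 erythroid genes were higher in hindlimbs, with summed levels of 3914 to 5192 CPM in hindlimbs and 3828 to 3933 CPM in forelimbs, 1 of 12 endothelial, 1 of 12 surface ectoderm and 1 of 7 mesenchyme genes were lower, and of 5 muscle precursor genes listed 1 was higher and 2 were lower. Their part in the member values was not tested.

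In Pitx1 null hindlimbs at e11.0, 3 members were higher than in wild type and 1 was lower. The higher ones were Ccne2, a G1/S cyclin, the clamp Pcna and the kinase Cdk1, and the lower one was Pole, the polymerase of the leading strand. Among all 14027 genes tested, 4.73% were higher and 8.41% lower, 13.1% in all (limma, adjusted p under 0.05). The member median was -0.07, equal to the median of all genes, -0.07. Below 0 were 27 of the 46 member values, and 8741 of the 14027 values over all genes. Other scalings of the libraries moved the median of all genes to between -0.02 and 0.01 and the member calls to 5 or 6 higher and 0 lower, while 7.02% to 9.45% of all genes were then higher and 2.87% to 4.04% lower.

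Ccne2 (ENSMUSG00000028212, chr4:11191351-11204779, plus strand) had 122, 115.2 and 157 CPM in null libraries and 79.1, 96.9 and 109 CPM in wild type libraries. Each null library was above each wild type library. The log2 fold change was 0.46 ± 0.08 (SE), a fold of 1.38, with limma adjusted p = 0.0116, and it was 0.43 within the shared run and 0.52 in replicate 3. Ccne1 was not called, with 80.9, 81.7 and 68.5 CPM in null libraries and 91.0, 80.0 and 75.4 CPM in wild type libraries. Ccnd2 had 287, 275 and 346 CPM in null libraries and 292, 253 and 399.8 CPM in wild type libraries. Both sets of groups overlapped, and replicate 3 was the highest library of each group for Ccnd2. The log2 fold changes of Ccne1, Ccnd1 and Ccnd2 were -0.09, 0.03 and -0.04.

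Pcna (ENSMUSG00000027342, chr2:132249162-132253314, minus strand) had 595, 616 and 651 CPM in null libraries and 473, 539 and 463 CPM in wild type libraries. The groups did not overlap, with a log2 fold change of 0.34 ± 0.08 (adjusted p = 0.0260, limma), 0.26 within the shared run and 0.49 in replicate 3. Pole (ENSMUSG00000007080, chr5:110286306-110337474, plus strand) had 105, 101 and 97.9 CPM in null libraries and 129.6, 109 and 136 CPM in wild type libraries. Every null library was below every wild type library, and the log2 fold change was -0.29 ± 0.09 (adjusted p = 0.0468, limma), -0.21 within the shared run and -0.47 in replicate 3. Under the 3 other scalings Pole had adjusted p of 0.0833 to 0.136. The other polymerase genes had log2 fold changes of 0.19 for Pola1 and -0.15 for Pold1, the catalytic subunit of the lagging strand polymerase.

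All 6 helicase genes Mcm2 to Mcm7 had values below 0 at e11.0, between -0.20 and -0.07, and none passed the test. Over all genes 8741 of 14027 values were below 0, with a median of -0.07. In the authors' deposited table the 6 values ran from -0.13 for Mcm3 to -0.001 for Mcm6. Mcm3 had 265, 247 and 242 CPM in null libraries and 306, 265 and 297 CPM in wild type libraries. Mcm7 had 360.2, 387 and 331 CPM in null libraries and 418, 406 and 368 CPM in wild type libraries, and Mcm5, of highest CPM, 385, 395 and 374 CPM in null libraries and 426, 404 and 383 CPM in wild type libraries. In each, wild type replicate 2 or 3 fell among the null libraries, so the groups overlapped. The loading and assembly genes split. Cdc6 had 75.5, 68.6 and 62.9 CPM in null libraries and 90.5, 74.7 and 78.0 CPM in wild type libraries and a log2 fold change of -0.23 ± 0.09 (limma adjusted p = 0.0885). Gins1 had 72.3, 73.1 and 68.6 CPM in null libraries and 60.9, 68.7 and 50.2 CPM in wild type libraries and 0.26 ± 0.08 (adjusted p = 0.0602, limma). Mcm10 had 112, 110.4 and 88.6 CPM in null libraries and 124, 109 and 102 CPM in wild type libraries. Cdt1 had a value of -0.16, Cdc45 0.02 and Gins2 0.07. In nucleotide supply, Rrm1 had 828, 839 and 448 CPM in null libraries and 745, 784 and 492 CPM in wild type libraries, with replicate 3 the lowest of each group. Rrm2 had 294, 275 and 261 CPM in null libraries and 327, 274 and 288 CPM in wild type libraries, and Tyms 211, 204 and 186 CPM in null libraries and 181, 200.4 and 152 CPM in wild type libraries. Their log2 fold changes were 0.04, -0.10 and 0.18.

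Cdk1 (ENSMUSG00000019942, chr10:69335146-69352938, minus strand), the kinase that drives entry into mitosis, had 313, 295 and 319 CPM in null libraries and 251, 283 and 241 CPM in wild type libraries. All null libraries were above all wild type libraries, with a log2 fold change of 0.26 ± 0.08 (limma adjusted p = 0.0488), 0.19 within the shared run and 0.40 in replicate 3. None of its cyclins passed the test, with log2 fold changes of 0.14 for Ccna2, 0.11 for Ccnb1 and -0.19 for Ccnb2. Ccna2 had 460.1, 478 and 243 CPM in null libraries and 389, 419.7 and 245 CPM in wild type libraries, and Ccnb2 99.6, 102 and 77.5 CPM in null libraries and 114, 119.7 and 86.6 CPM in wild type libraries. Replicate 3 was the lowest library of each group in both. Aurka had 92.8, 88.8 and 87.1 CPM in null libraries and 119.7, 98.7 and 104 CPM in wild type libraries, with no overlap, and a log2 fold change of -0.26 ± 0.08 (adjusted p = 0.0567, limma). Tpx2 had 269, 254 and 178 CPM in null libraries and 304, 275 and 236 CPM in wild type libraries, and Plk1, Aurkb and Birc5 had values of -0.27, -0.19 and 0.04.

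The checkpoint kinase Bub1b had 268, 255 and 217 CPM in null libraries and 299, 282 and 259.5 CPM in wild type libraries. Cdc20 had 141, 131 and 146 CPM in null libraries and 164, 153 and 167 CPM in wild type libraries. The Cdc20 groups did not overlap, and its log2 fold change was -0.21 ± 0.07 (limma adjusted p = 0.0570). Cenpf had 410.1, 452 and 306 CPM in null libraries and 445, 432 and 332 CPM in wild type libraries. Among motors and cytokinesis genes, Kif11 had 488, 524 and 369 CPM in null libraries and 477, 539 and 342 CPM in wild type libraries. Kif20a had 250.1, 259 and 221 CPM in null libraries and 288, 260.1 and 255 CPM in wild type libraries, and Nusap1, which bundles spindle microtubules, 189.8, 187 and 188 CPM in null libraries and 179.9, 209 and 145 CPM in wild type libraries. Replicate 3 of Nusap1 was the lowest wild type library and lay among the others in null. Top2a had 1785, 1818 and 1242 CPM in null libraries and 1773, 1926 and 1347 CPM in wild type libraries. Mki67 had 659, 665 and 618 CPM in null libraries and 784, 721 and 771 CPM in wild type libraries, every null library below every wild type library, with -0.23 ± 0.07 (adjusted p = 0.0530, limma). In all, 3 members had non-overlapping groups upward and 4 downward, where 4.78% and 13.7% of all genes had.

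The e11.0 counts changed with the libraries and the model, and without the run term 0 members were called (0.0356% of all genes passed). With the replicate number as a block in place of the run, which pairs same-numbered libraries, 5 members were higher and 10 lower, Gins1 and Pola1 being added upward and Aurka, Bub1b, Ccnb2, Cdc20, Cdc6, Mcm3, Mki67, Plk1 and Tpx2 downward, where 24.5% of all genes passed. Without wild type replicate 2, 8 members were higher and 20 lower (37.6% of all genes passed), without null replicates 1 or 2 there were 2 and 1 calls (7.36% and 1.65% of all genes), and without null replicate 3 or wild type replicates 1 or 3 there were 0 (0.827% to 1.40% of all genes). The log2 fold changes stayed between 0.39 and 0.55 for Ccne2, 0.26 and 0.41 for Pcna, 0.19 and 0.33 for Cdk1 and -0.39 and -0.21 for Pole with any 1 library left out. The authors' deposited table had 6 members higher and 1 lower at an adjusted p under 0.05, where it had 12.2% of all genes higher and 8.47% lower, 20.6% in all.

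Of further pathway genes at e11.0, 6 of 45 replication genes were higher and 4 lower, and 4 of 65 mitosis genes listed were higher and 5 lower. Among all genes tested, 4.73% were called higher and 8.41% lower. Gmnn, which encodes the Cdt1 inhibitor geminin, averaged 127 ± 3.50 CPM in null and 101 ± 8.84 CPM in wild type hindlimbs (SD, log2 fold change 0.32, limma adjusted p = 0.0271). The origin recognition genes Orc4 and Orc2 had log2 fold changes of 0.34 and 0.34. Lower were Clspn, a fork and checkpoint protein, at 88.1 ± 8.02 CPM in null and 111 ± 10.01 CPM in wild type hindlimbs (log2 fold change -0.33), and the maintenance DNA methyltransferase Dnmt1, at 357 ± 22.3 CPM in null and 457 ± 69.3 CPM in wild type hindlimbs (-0.35). Cenpw, a kinetochore protein, averaged 82.7 ± 24.0 CPM in null and 60.2 ± 17.2 CPM in wild type hindlimbs (log2 fold change 0.45, limma adjusted p = 0.0118), and Mad2l1, a checkpoint protein, had 0.28 and Cenpq 0.34. Lower in null hindlimbs were Cenpt (-0.32) and the centromere chaperone Hjurp (-0.24). Of 31 regulators listed, the checkpoint kinase Chek1 was higher (0.38, adjusted p = 0.0180, limma) and the CDK inhibitor Cdkn1c lower (-0.32, adjusted p = 0.0293). In the same libraries 9 of 12 endothelial markers were lower (summed levels of 129 to 233 CPM in null and 221 to 305 CPM in wild type hindlimbs), 4 of 5 muscle precursor markers listed were lower (91.5 to 98.4 CPM in null and 118 to 130.4 CPM in wild type), 4 of 7 mesenchyme markers were lower (650 to 934 CPM in null and 878 to 1168 CPM in wild type), 1 of 12 erythroid markers was higher (6211 to 17922 CPM in null and 4922 to 11366 CPM in wild type) and 5 of 12 surface ectoderm markers were higher (445 to 1013 CPM in null and 341 to 847 CPM in wild type). Pax7 and Myod1 of the muscle list were not among the genes listed. The part of these cell types in the member values was not tested.

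In Pitx1 null hindlimbs at e11.5, 12 members were higher than in wild type and none was lower. They came from both sides of the cycle. For replication these were Rrm2, Cdc6, Mcm10, Pcna and Mcm5, and for mitosis Cdk1, Aurka, Aurkb, Plk1, Cdc20, Ccnb1 and Kif20a. The folds were small, 1.12 to 1.23. Among all 13478 genes tested, 2.83% were higher and 7.96% lower, 10.8% in all (limma, adjusted p under 0.05). The member median was 0.12, against -0.02 over all genes. Above 0 were 41 of the 46 member values, and 5945 of the 13478 values over all genes. In the null library of all 3 same-numbered pairs 34 members were higher and 1 lower, as were 23.4% and 30.9% of all genes. The same counts were 9 higher and 17 lower at e11.0 (19.2% and 39.2% of all genes) and 22 higher and 5 lower in CD1 hindlimbs (22.6% and 19.6% of all genes). Groups did not overlap in 12 members, all with null higher, of which 6 were among the 12 called, where 5.48% of all genes had such a separation upward and 11% downward.

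**Figure D2:**
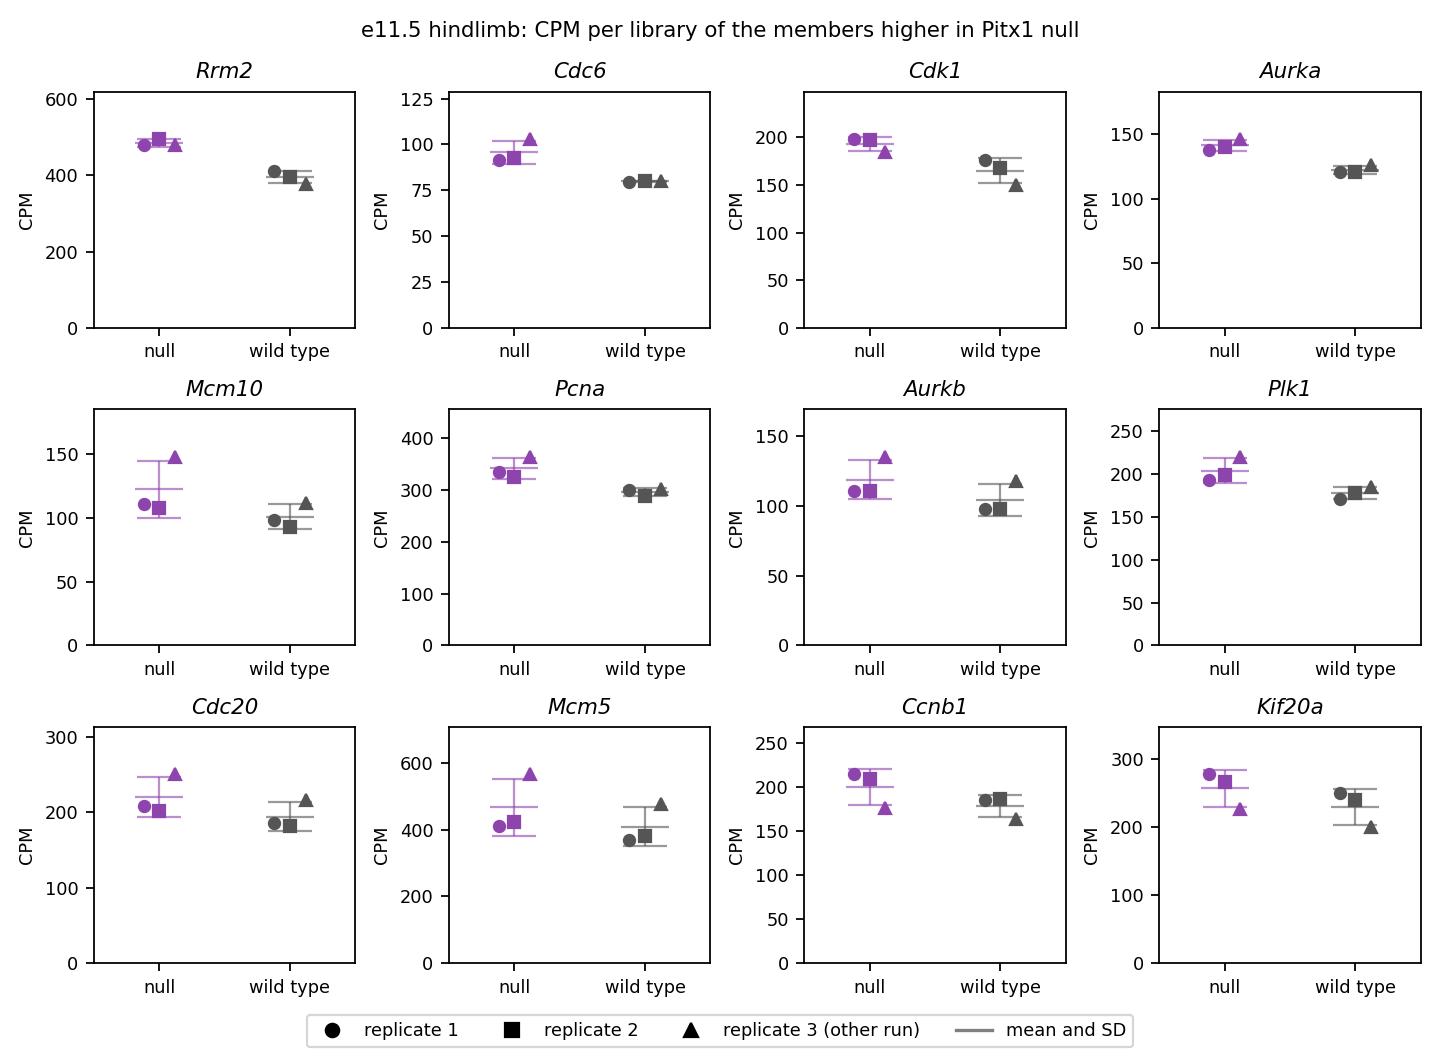
CPM in each e11.5 hindlimb library for the 12 members higher in Pitx1 null, with null left of wild type, replicates as symbols, and the mean and SD as lines. Each null library lies above the wild type library of the same number in all 12 panels, while replicate 3 lies apart from replicates 1 and 2 in several of them, as in Mcm5 at 566 CPM in null and 475 CPM in wild type.

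The highest fold changes among the called members were in nucleotide supply (Rrm2) and in helicase loading and assembly (Cdc6, Mcm10). Rrm2 (ENSMUSG00000020649, chr12:24708241-24714146, plus strand) had 479, 496 and 479 CPM in null libraries and 412, 396 and 378 CPM in wild type libraries. Null libraries lay apart from wild type libraries, and the log2 fold change was 0.29 ± 0.05 (SE, limma adjusted p = 0.00557), 0.27 within the shared run and 0.34 in replicate 3. Its partner subunit Rrm1 had 599, 604 and 508 CPM in null libraries and 564, 588 and 464 CPM in wild type libraries. Tyms had 133, 132 and 128 CPM in null libraries and 128, 120.5 and 114 CPM in wild type libraries, with no overlap, but adjusted p was 0.124 for Tyms and 0.236 for Rrm1 (limma). Cdc6 (ENSMUSG00000017499, chr11:98907801-98923940, plus strand) had 91.6, 92.8 and 103 CPM in null libraries and 79.4, 80.1 and 80.1 CPM in wild type libraries. The 3 wild type libraries of Cdc6 lay within 1 CPM of each other and the null libraries were all higher, with 0.26 ± 0.05 (adjusted p = 0.0144, limma), 0.21 within the shared run and 0.36 in replicate 3. Mcm10 (ENSMUSG00000026669, chr2:4989714-5012791, minus strand) had 111, 108 and 148 CPM in null libraries and 98.4, 92.6 and 112 CPM in wild type libraries. Null replicates 1 and 2 of Mcm10 were below wild type replicate 3, so the groups overlapped, and the log2 fold change was 0.26 ± 0.06 (adjusted p = 0.0225, limma), 0.19 within the shared run and 0.40 in replicate 3. Cdt1, Cdc45, Gins1 and Gins2 had values of 0.16, 0.19, 0.16 and 0.14, none past the threshold.

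Among the helicase subunits, Mcm5 (ENSMUSG00000005410, chr8:75109569-75128439, plus strand) had 410.3, 422 and 566 CPM in null libraries and 369, 381 and 475 CPM in wild type libraries. Replicate 3 was the highest library of each group, and null was higher in each pair, with 0.18 ± 0.05 (limma adjusted p = 0.0365), 0.15 within the shared run and 0.25 in replicate 3. Mcm7 had 409, 430.4 and 472 CPM in null libraries and 381, 395 and 428 CPM in wild type libraries and the next smallest p (adjusted p = 0.109, limma). Mcm2, Mcm3, Mcm4 and Mcm6 had log2 fold changes of 0.11, 0.12, 0.04 and 0.06. Pcna had 335, 325 and 364 CPM in null libraries and 299, 287 and 301 CPM in wild type libraries, all null above all wild type libraries. Its log2 fold change was 0.20 ± 0.05 (adjusted p = 0.0266, limma), 0.17 within the shared run and 0.27 in replicate 3. Pold1 had 119, 121 and 219 CPM in null libraries and 117, 116 and 193 CPM in wild type libraries, with replicate 3 far above the others in both groups. Pola1 and Pole had values of -0.04 and 0.04.

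No G1/S cyclin passed the test at e11.5. Ccne1 had 106, 116 and 147 CPM in null libraries and 104, 97.5 and 101 CPM in wild type libraries. Its null libraries were all above wild type, but null replicate 3 alone was far above the rest, and the log2 fold change of 0.27 ± 0.08 had adjusted p = 0.0635 (limma), with 0.14 within the shared run and 0.53 in replicate 3. Ccnd2 had 746, 669 and 583 CPM in null libraries and 696, 747 and 728 CPM in wild type libraries. Ccnd1 had 393, 408 and 308 CPM in null libraries and 384, 389 and 268 CPM in wild type libraries. The groups overlapped in both, and the values were -0.13 for Ccnd2, 0.10 for Ccnd1 and 0.10 for Ccne2.

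Of Cdk1 and its cyclins, Cdk1 had 198, 197 and 185 CPM in null libraries and 176, 168 and 150.4 CPM in wild type libraries. The groups did not overlap, with 0.23 ± 0.05 (limma adjusted p = 0.0152), 0.20 within the shared run and 0.30 in replicate 3. Ccnb1 (ENSMUSG00000041431, chr13:100778650-100786570, minus strand), the cyclin that carries Cdk1 into mitosis, had 214, 209 and 176 CPM in null libraries and 185, 186 and 164 CPM in wild type libraries. Replicate 3 was the lowest of each group, and the log2 fold change was 0.16 ± 0.04 (adjusted p = 0.0490, limma), 0.19 within the shared run and 0.11 in replicate 3. With the replicate block Ccnb1 lost its call (adjusted p = 0.0502, limma). Ccna2 had 353, 356 and 229 CPM in null libraries and 325, 322 and 211 CPM in wild type libraries, and Ccnb2 a value of 0.10.

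In the class of mitotic kinases and passenger complex genes, the kinases Aurka, Aurkb and Plk1 were called, and Tpx2 and Birc5 were not. Aurka (ENSMUSG00000027496, chr2:172356190-172370535, minus strand) had 138, 139.8 and 146 CPM in null libraries and 120.4, 120.3 and 125.8 CPM in wild type libraries. All null libraries were above wild type, with 0.21 ± 0.04 (limma adjusted p = 0.0175), 0.20 within the shared run and 0.22 in replicate 3. Aurkb (ENSMUSG00000020897, chr11:69045647-69051664, plus strand), the kinase of the passenger complex, had 111, 111 and 135 CPM in null libraries and 97.9, 98.0 and 118 CPM in wild type libraries. Within each run null was higher, while wild type replicate 3 lay above null replicates 1 and 2, and the log2 fold change was 0.18 ± 0.04 (adjusted p = 0.0289, limma), 0.17 within the shared run and 0.20 in replicate 3. Plk1 (ENSMUSG00000030867, chr7:122159439-122169873, plus strand), a kinase of mitotic entry and the spindle, had 193, 199 and 220.4 CPM in null libraries and 171, 178 and 185 CPM in wild type libraries. The Plk1 groups did not overlap, with 0.19 ± 0.05 (adjusted p = 0.0293, limma), 0.17 within the shared run and 0.25 in replicate 3. Tpx2 had 342, 339 and 327 CPM in null libraries and 320.2, 321 and 298 CPM in wild type libraries, also without overlap, and adjusted p = 0.140 (limma). Birc5 had a value of 0.15.

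In the checkpoint class, Cdc20 (ENSMUSG00000006398, chr4:118432901-118437352, minus strand) had 209, 202 and 251 CPM in null libraries and 186, 181 and 217 CPM in wild type libraries. Null was higher in each pair and replicate 3 was the highest of each group, with 0.18 ± 0.04 (limma adjusted p = 0.0319), 0.16 within the shared run and 0.21 in replicate 3. Bub1b had 297, 281 and 287 CPM in null libraries and 273, 265 and 265 CPM in wild type libraries, without overlap but not past the test, and Bub1, Ttk, Cenpe and Cenpf had values of 0.13, 0.12, 0.01 and -0.01. Kif20a (ENSMUSG00000003779, chr18:34624613-34633277, plus strand), a motor of the central spindle, had 277, 266 and 226 CPM in null libraries and 249.6, 239 and 199.6 CPM in wild type libraries. Replicate 3 was the lowest of each group, and the log2 fold change was 0.16 ± 0.04 (adjusted p = 0.0496, limma), 0.15 within the shared run and 0.18 in replicate 3. Prc1, which bundles microtubules at the spindle midzone, had 141, 130.3 and 106 CPM in null libraries and 127, 124 and 98.8 CPM in wild type libraries, and Kif11 294, 259 and 202 CPM in null libraries and 269.6, 261 and 199.9 CPM in wild type libraries. Nusap1, Ect2 and the cytokinesis scaffold Anln had values of -0.08, 0.10 and 0.08. Top2a and Mki67 lay close to 0. Top2a had 1216, 1104 and 902 CPM in null libraries and 1147, 1134 and 928 CPM in wild type libraries, and Mki67 721, 639 and 644 CPM in null libraries and 665, 717 and 670.5 CPM in wild type libraries, with log2 fold changes of 0.00 and -0.04.

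The e11.5 counts also changed with the libraries, and without the run term 0 members were called (0.0816% of all genes passed). Without null replicate 2, null replicate 3 or wild type replicate 3, Rrm2 alone was called (3.21% to 3.49% of all genes passed), without wild type replicate 2 Rrm2 and Cdc6 were (5.82%), without wild type replicate 1 there were 6 calls (7.66%) and without null replicate 1 there were 18 (19.5%, with 7.16% higher), all upward. The log2 fold changes moved less than the calls, between 0.27 and 0.32 for Rrm2, 0.20 and 0.22 for Aurka, 0.17 and 0.19 for Aurkb, 0.14 and 0.19 for Ccnb1 and 0.19 and 0.31 for Mcm10 with any 1 library left out. Within the shared run alone Rrm2 was the 1 call (3.58% of all genes). Of the 46 members, 38 were higher in null both within the shared run and in replicate 3, a count not made over all genes. The authors' deposited table had 18 members higher and 0 lower at an adjusted p under 0.05. It had 8.73% of all genes higher and 10.9% lower, 19.6% in all.

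Replication and mitosis genes were close to each other in CD1, at e11.0 and at e11.5. At e11.5, 5 of 19 replication genes and 7 of 23 mitosis genes were higher, with medians of 0.12 and 0.11. Among all genes 2.83% were higher, with a median of -0.02. At e11.0 the counts were 1 higher and 1 lower of 19 replication genes, and 1 higher of 23 mitosis genes, with medians of -0.10 and -0.06. Among all genes 4.73% were higher and 8.41% lower there, with a median of -0.07. In CD1 no gene of either set passed, with medians of 0.06 and 0.03, while 5.87% of all genes passed, with a median of 0.01. The mean of the replication genes exceeded that of the mitosis genes by 0.03 in CD1, 0.02 at e11.0 and 0.03 at e11.5, where the same difference varied between libraries of a group with an SD of 0.07, 0.11 and 0.18, which includes the difference between runs. With any 1 library left out the difference of the means ran from 0.01 to 0.05 in CD1, from 0.00 to 0.04 at e11.0 and from -0.01 to 0.07 at e11.5, where it was -0.01 without either replicate 3 library. For the 13 replication genes of the Mcm, Pcna, Rrm, Cdc45 and Gins families alone, the medians were 0.07, -0.07 and 0.14, with 0, 1 and 4 members higher. Of all genes 2.41%, 4.73% and 2.83% were higher. The level of the 2 sets differed between replicate 3 and replicates 1 and 2. At e11.5 replicate 3 was also unstranded, so run cannot be told apart from library kind there. Mean log2(CPM + 1) of the replication genes at e11.5 was 7.51, 7.52 and 7.70 in null and 7.41, 7.41 and 7.49 in wild type libraries, while that of the mitosis genes was 7.78, 7.71 and 7.57 in null and 7.65, 7.63 and 7.48 in wild type libraries. Replicate 3 was thus the highest library of each group for replication genes and the lowest for mitosis genes, and null was above wild type in each pair for both.

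**Figure D3:**
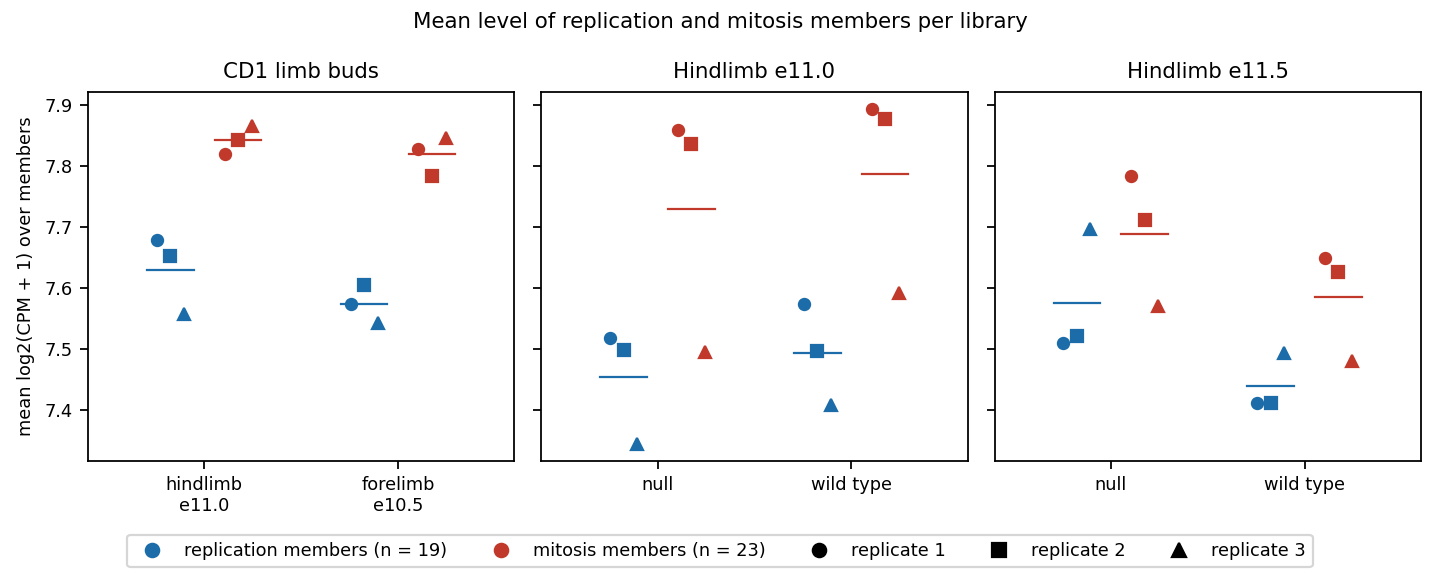
Mean log2(CPM + 1) over the 19 replication and the 23 mitosis members in each library, with symbols for replicates and a line at the group mean. At e11.5 each null library lies above the wild type library of its number for both sets, and replicate 3 (triangle) lies apart from replicates 1 and 2. The axis does not start at 0, and levels in different panels were normalized separately.

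Further pathway genes at e11.5 that passed the test were higher, apart from 2 CDK inhibitors. All 45 further replication genes had values above 0, with a median of 0.12, and 8 passed the test. Over all genes 5945 of 13478 values were above 0, with a median of -0.02. Of all genes 2.83% were called higher and 7.96% lower. Pold2, the second subunit of polymerase delta, averaged 67.1 ± 15.5 CPM in null and 49.3 ± 14.0 CPM in wild type hindlimbs (SD, log2 fold change 0.45, limma adjusted p = 0.00261). Dut, which keeps uracil out of DNA, had 0.32, the methylation cofactor Uhrf1 0.24, Gmnn 0.24 and the fork protein Tipin 0.22. Of 65 further mitosis genes listed, 62 had values above 0 and 8 passed, all upward. Cenpw averaged 30.6 ± 4.21 CPM in null and 23.4 ± 5.57 CPM in wild type hindlimbs (log2 fold change 0.39, limma adjusted p = 0.0185), the motor Kif22 had 0.21, the passenger protein Cdca8 0.18, Mad2l1 0.18 and the cohesin protector Cdca5 0.22. Of 31 regulators listed none was higher and 2 were lower, both CDK inhibitors. Cdkn1c averaged 394 ± 159 CPM in null and 611 ± 169 CPM in wild type hindlimbs (SD, log2 fold change -0.69, adjusted p = 0.00339, limma), and Cdkn1a 16.1 ± 2.41 CPM in null and 21.8 ± 1.33 CPM in wild type hindlimbs (-0.42, adjusted p = 0.0172, limma). In these libraries all 7 muscle precursor markers were lower (summed levels of 114.7 to 146 CPM in null and 188 to 219 CPM in wild type), 2 of 12 endothelial markers were lower (411 to 478 CPM in null and 469 to 514 CPM in wild type), 3 of 7 mesenchyme markers were higher and 1 lower (1382 to 1798 CPM in null and 1419 to 1763 CPM in wild type), 1 of 12 surface ectoderm markers was higher, and 1 of 7 macrophage and 1 of 4 nerve markers listed were lower. No marker listed was at 0 in any library, and the part of these cell types in the member values was not tested.

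Whether the null effect on a member differed between e11.5 and e11.0 was tested as the difference of the 2 effects over 12935 genes in both tables. No member passed (limma adjusted p under 0.05, 22 members at an unadjusted p under 0.05, where 20.6% of all genes were), and 0.363% of all genes did. The effect was larger at e11.5 in 37 of the 46 members, and in 7644 of 12935 genes over all. In 26 members it was of opposite sign at the 2 stages. Pcna and Cdk1 were called at both stages, of 4 called at e11.0 and 12 at e11.5. Neither opposite signs nor shared calls were counted over all genes, so these counts have no share of all genes beside them. Cdc20 had the smallest p, with effects of 0.18 ± 0.04 at e11.5 and -0.21 ± 0.07 at e11.0, a difference of 0.39 ± 0.08 (SE, adjusted p = 0.0527, limma). Aurka had a difference of 0.46 ± 0.10 (adjusted p = 0.0534, limma) and Cdc6 one of 0.49 ± 0.11 (adjusted p = 0.0683, limma). The median difference was 0.24 over the 19 replication genes and 0.12 over the 23 mitosis genes. By class the median difference was 0.38 for mitotic kinases and passenger complex genes, 0.25 for the MCM helicase, 0.25 for loading and fork assembly, 0.13 for chromosome structure, 0.10 for the checkpoint and kinetochore, 0.08 for motors and cytokinesis, 0.06 for polymerases and clamp, 0.05 for nucleotide supply, 0.02 for Cdk1 and its cyclins and -0.01 for G1/S cyclins, against 0.05 over all genes. With the replicate block 6 members passed, Aurka, Aurkb, Cdc20, Cdc6, Plk1 and Rrm2, all larger at e11.5, where 1.07% of all genes were larger and 1.62% passed in all. Without wild type replicate 2 of e11.0, 20 were larger and 2 smaller, where 14.4% and 5.4% of all genes were. Ribosomal RNA had been depleted for the libraries of e11.0, whereas mRNA was enriched for those of e11.5, so age cannot be told apart from library kind in this difference.

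**Figure D4:**
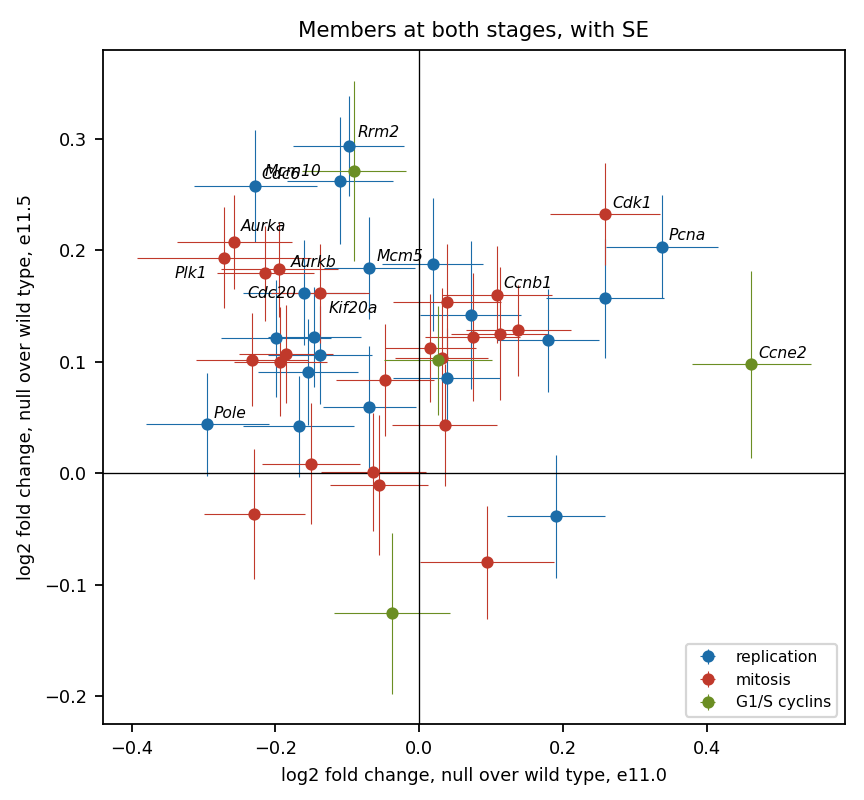
Log2 fold change of each member, null over wild type, at e11.0 (horizontal axis) and e11.5 (vertical axis), with SE bars, coloured by role. The members called at either stage are named. Most points lie above 0 on the vertical axis, on both sides of 0 on the horizontal one, with Pcna and Cdk1 right of 0 and above it.

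The size of a member's value went with properties of its transcript that the list did not use. At e11.0 the log2 fold change was lower with a higher GC content of the longest annotated transcript (Spearman correlation -0.59 across the 46 members, -0.29 across 13998 genes). The 23 members of lower GC content (36.3 to 47.3%) had a median of 0.04 and the 23 of higher GC content (47.4 to 61.0%) one of -0.16. At e11.5 the values were lower with a longer transcript (Spearman correlation -0.62 across members, -0.27 across 13457 genes) and were higher with higher GC content (0.46 across members, 0.002 across all genes). In CD1 they were higher with higher GC content (0.58 across members, 0.38 across 13513 genes), and so was the difference between stages (0.69 across members, 0.33 across 12915 genes). These are descriptions across genes of the same libraries, which are not independent replicates. With GC content and length removed from each library, a setting added after seeing the data, 24 members were higher at e11.5 with 8.19% of all genes higher, and 6 were higher and 1 lower at e11.0 with 6.28% and 3.34% of all genes, Pole being no longer called (adjusted p = 0.375, limma). Replication members had a median GC content of 49.2%, mitosis members 46.1% and all genes 49.4%.

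**Figure D5:**
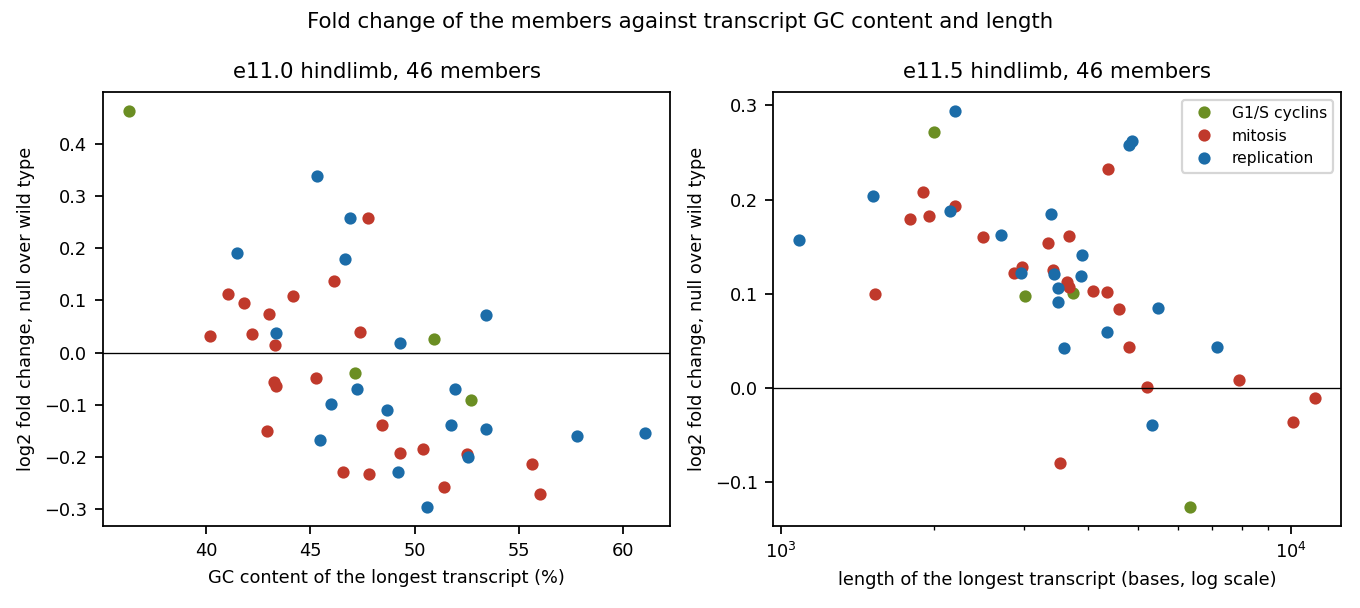
Log2 fold change of the 46 members, null over wild type, against the GC content of the longest transcript at e11.0 (left) and against its length at e11.5 (right, log axis). Points fall to the right in both panels, from Ccne2 at 0.46 with the lowest GC content in the left one.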

How the data were processed

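RNA of 18 libraries, 3 in each of 6 groups, had been extracted as total RNA on silica columns from limb buds of timed breedings, per the labels. Libraries of e10.5 and e11.0 were stranded after ribosomal RNA depletion. Those of e11.5 were made by mRNA enrichment, stranded in replicates 1 and 2 and unstranded in replicate 3. The authors deposited CPM (read counts scaled to a common library total) per gene, with 1 table of 6 libraries for each comparison. The submitters' processing notes name STAR, featureCounts, edgeR and mm10 (GRCm38). Their versions, and whether counting used strand, are not given in the sources used here. The tables also hold the authors' log2 fold changes, p-values and adjusted p-values, and a likelihood-ratio score, per the file headers. The score was not used.

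CPM was used as deposited, on the log2(CPM + 1) scale, so fold changes understate those of low genes. limma 3.58.1 in R 4.3.3 (with an intensity trend) fitted group and sequencing run, with 3 residual degrees of freedom in a table, to all genes listed. Tests were two-sided, and p-values were adjusted by Benjamini-Hochberg over all genes of a table, with a threshold of 0.05. The difference between stages was fitted over both null tables together. The script was tested on simulated data with planted fold changes larger than those of any member. Recovery of changes as small as theirs was not tested. The CPM steps imply 17.4 to 53.6 M reads per library, 1 read being at most 0.0575 CPM. This was used for depth only and covers counting error only.

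The members and the lists of other genes were chosen with earlier results of these data known. Values per library are given for every called member, and in each role class for the 2 members of smallest p and the member of highest CPM. Other pathway genes are named where called, at most 5 of smallest p per list. Promoters were restricted to the member of smallest p at e11.5 in each role class with a call, except that of motors and cytokinesis (Kif20a), for which none is printed, and come from RefSeq, matched by symbol. GC content and length are those of the longest transcript in GENCODE M21, matched by gene ID for 13513 of 13540, 13998 of 14027 and 13457 of 13478 genes. Libraries of the same number in the 2 groups compared deviated together, with correlations across genes of 0.69, 0.80 and 0.94 in the CD1 table, 0.66, 0.64 and 0.86 in the e11.0 table and 0.73, 0.83 and 0.91 in the e11.5 table, which met the rule used here for pairing, all over 0.1. Replicates 1 and 2 also correlated across numbers, at 0.75 and 0.85 (CD1), 0.41 and 0.53 (e11.0) and 0.63 (e11.5), and replicate 3 with replicates 1 and 2 at -0.88 to -0.63. Number and run therefore overlap in this check, so meeting the rule does not show that libraries of the same number were paired. In CD1 each replicate 1 library correlated more with replicate 2 of the other group than with replicate 1. Replicate 3 of CD1, with no run named in the labels, was fitted as another run. Alternatives were the pseudocount, a filter on mean CPM, 3 scalings, the replicate block, no run term, the shared run alone, each library left out, the authors' deposited table and, added after seeing the data, a correction for GC content and length.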

Additional observations from a re-analysis of the deposited data

Results flagged for a closer look

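Among the pathway genes outside the 46 members, Pold2, which encodes a subunit of DNA polymerase delta, stood out because its response in Pitx1 null hindlimbs differed between the stages. The log2 fold change, null over wild type, was larger at e11.5 than at e11.0 by 0.465 ± 0.0914 (SE, limma adjusted p = 0.0494 over 12935 genes). Ribosomal RNA had been depleted for all libraries of e11.0 and mRNA enriched for all those of e11.5. Age therefore cannot be told apart from library kind in this difference.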

How the results depend on the processing

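Without the run term the count of called members was 0 in CD1, 0 at e11.0 and 0 at e11.5 (0.096%, 0.0356% and 0.0816% of all genes). With replicates 1 and 2 alone it was 0, 0 and 1 (3.48%, 1.42% and 3.58% of all genes). The replicate block, which pairs libraries of the same number, gave 15 at e11.0 (main 4; 24.5% of all genes, main 13.1%) and 6 for the stage difference (main 0; 1.62% of all genes, main 0.363%), and left CD1 at 1 and e11.5 at 11. After GC and length correction, added after seeing the data, the counts were 2 in CD1, 7 at e11.0, 24 at e11.5 and 3 for the stage difference (7.16%, 9.62%, 14.8% and 0.89% of all genes), and with the replicate block too they were 8 at e11.0, 28 at e11.5 and 4 for the stage difference (10.9%, 16.3% and 1.24%). A pseudocount of 4 gave 2 for the stage difference (0.673%), and the authors' deposited table had 7 at e11.0 (20.6%). Leaving out each library in turn gave 0 to 2 members in CD1, 0 to 28 at e11.0, 1 to 18 at e11.5 and 0 to 22 for the stage difference, where 2.91% to 8.80%, 0.827% to 37.6%, 3.21% to 19.5% and 0.0773% to 19.8% of all genes passed. The mean of replication minus mitosis genes ran from 0.003376 to 0.04986 in CD1, 0.003743 to 0.05708 at e11.0 and -0.006075 to 0.06909 at e11.5 over the alternatives run.

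Of 1589 gene values compared across alternatives, 1192 kept direction and side of the threshold, 314 lost the threshold, 53 newly passed it and 30 changed sign; for called members 193 of 306 kept both and 113 lost the threshold. The GC and length correction, with or without the block, gave in CD1 -0.003323 for Cdc20, 0.03144 for Cenpe, 0.04044 for Ect2, 0.07242 for Mki67, 0.04154 for Pola1 and 0.0538 for Top2a, and at e11.5 0.09945 for Mki67. At e11.0, Top2a was 0.03364 with median-ratio, 0.002998 with trimmed-mean and 0.001117 with upper-quartile scaling and 0.003111 in the authors' deposited table, and Ccne1 was 0.005678 with median-ratio scaling. Mki67 at e11.5 was 0.001764 with median-ratio scaling, and Nusap1 at e11.0 was -0.04295 with replicates 1 and 2 alone. Leaving out each library moved Mki67 in CD1 between -0.02984 and 0.01145, Top2a in CD1 between -0.03699 and 0.005718, Nusap1 at e11.0 between -0.04295 and 0.1955, Mki67 at e11.5 between -0.08951 and 0.01057 and Top2a at e11.5 between -0.04464 and 0.03448. The cause was not tested for these changes. Count-based tests were planned for whole reads and were not run, since the files passed as CPM only. Every member had 22.4 CPM or more in every library, and the fits had 3 residual degrees of freedom a table.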
